A study of Mus musculus with 18 samples.

Results

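The 10 genes described here, C1qa, C1qb, C1qc, Csf1r, Cx3cr1, Trem2, Tyrobp, Ctss, Laptm5 and Fcer1g, are transcribed in the brain mostly by microglia. They were taken by name from a table of 12012 genes measured in mouse primary hippocampal cultures, and all 10 had a row in it. The cultures came from E18.5 embryos of Fibcd1 WT or KO mice, the KO carrying the Fibcd1tm1Lex allele on a C57BL/6J background. By the main text of the paper, RNA was taken at DIV3, the third day in vitro, whereas a supplementary figure legend gives an earlier day. FIBCD1 is an endocytic receptor for acetylated sugars and glycosaminoglycans, and CSPGs are chondroitin sulphate proteoglycans of the brain extracellular matrix. The labels give 18 libraries, 5 WT, 5 WT_CSPG, 4 KO and 4 KO_CSPG, and the table holds 8 of them, replicates A to D of WT_CSPG and of KO_CSPG. Both of these groups were grown on a CSPG coating, so genotype is the contrast and the uncoated cultures were not analysed here. The labels name neuron as the cell type, no cell type was purified, and the age is the same in both groups.

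Microglia are the resident macrophages of the brain, which enter it from the embryonic yolk sac and are carried into dissociated hippocampal cultures with neurons and astrocytes. They depend on the receptor CSF1R for survival, sense neurons through the fractalkine receptor CX3CR1, tag synapses and debris with C1q and clear them through receptors such as TREM2 that signal through the adaptor TYROBP. Engulfed material is broken down in lysosomes by proteases such as cathepsin S. The myeloid transcription factor PU.1, encoded by Spi1, binds a purine-rich element, the PU box, at many genes of this lineage.

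RefSeq promoters (build GRCm38.p6) were found for 7 of the 10 genes, and the 250 bases before the transcription start were searched on both strands for the PU box core GAGGAA. It occurred in 5 of the 7 (C1qb, C1qc, Ctss, Laptm5 and Trem2) and not in the windows of Cx3cr1 and Fcer1g, and 23.3% of all 32851 RefSeq promoter windows of the same length held it. The RefSeq start can lie inside the gene span given below. The Cx3cr1 window lay wholly inside its span, and the C1qc, Fcer1g and Laptm5 windows lay partly inside theirs. The ETS-IRF composite element, the other motif searched on both strands, occurred in 0 of the 7 and in 2.30% of all windows. The windows of 3 genes are shown. Trem2 and Ctss were the pair whose levels followed each other most closely from culture to culture. C1qb was the 1 member with every KO_CSPG culture above every WT_CSPG culture, as had 4.05% of all genes. Its difference between genotypes was not called at an adjusted p under 0.05. Each window is given 5′ to 3′ on the strand of its gene, with the motif in capitals (TTCCTC is the core read on the opposite strand).
Trem2, chr17:48346151-48346400, plus strand: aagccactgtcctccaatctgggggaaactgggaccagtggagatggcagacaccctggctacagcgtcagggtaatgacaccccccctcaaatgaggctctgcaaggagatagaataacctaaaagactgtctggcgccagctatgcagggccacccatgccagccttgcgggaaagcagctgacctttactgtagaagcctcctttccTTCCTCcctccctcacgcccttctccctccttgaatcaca
Ctss, chr3:95526536-95526785, plus strand: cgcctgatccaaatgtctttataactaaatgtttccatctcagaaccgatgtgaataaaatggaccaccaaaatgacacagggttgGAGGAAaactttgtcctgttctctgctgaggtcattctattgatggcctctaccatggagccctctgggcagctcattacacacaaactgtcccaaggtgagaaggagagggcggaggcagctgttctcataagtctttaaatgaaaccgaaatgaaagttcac
C1qb, chr4:136886201-136886450, minus strand: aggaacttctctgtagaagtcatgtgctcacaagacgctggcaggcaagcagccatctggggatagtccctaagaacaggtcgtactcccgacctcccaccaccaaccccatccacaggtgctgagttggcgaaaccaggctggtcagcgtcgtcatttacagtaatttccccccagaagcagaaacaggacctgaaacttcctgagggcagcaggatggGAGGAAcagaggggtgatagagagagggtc
The first base of the motif, read along the gene's strand, lay 40 bases before the start of Trem2, 164 before that of Ctss and 30 before that of C1qb. These matches describe the sequence, and no binding was measured.

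The libraries held between 10099564 and 11174615 reads over the genes of the table in WT_CSPG and between 10541445 and 11647202 in KO_CSPG. Values are normalized counts, the reads of a gene divided by a size factor of its library. The table has no gene with a mean below 40.7, since genes with low values had been left out, so genes without a row have no value here. Fibcd1, the targeted gene, was at 92 ± 61 in WT_CSPG and 3.4 ± 3.0 in KO_CSPG (mean ± SD, n = 4 each), and every KO_CSPG culture was below every WT_CSPG culture. The 4 Y-linked genes of the table summed to 1557 to 1935 in WT_CSPG and 878 to 1092 in KO_CSPG, and Xist was at 3912 to 5082 and 6375 to 8324. The sex of the embryos is not in the labels. The methods state for the mice in general that littermates were matched for sex, without naming the cultures. Because genotype accounts for 91.2% of the variance of the Y-linked level, sex composition and genotype cannot be told apart in what follows. Choroid plexus genes with a row (Ttr, Enpp2 and Sostdc1) summed to 3999 in WT_CSPG replicate D and to 162 to 1283 in the other 7 libraries.

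Together the microglia genes summed to 2489 to 2905 normalized counts in WT_CSPG and 2542 to 3185 in KO_CSPG. The members were each read 92 to 487 times per library. Within groups the chi-square of their reads per degree of freedom, which is 1 on average when counting error is the sole source of spread, was 0.895 for C1qb, 1.22 for Csf1r, 1.34 for Tyrobp, 1.67 for Fcer1g and 2.16 to 5.96 for the other 6 genes, beside a median of 1.44 over all genes.

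Per kilobase, using the length column of the table, C1qb was at the top with 331 ± 22.2 normalized counts per kb (SD, n = 8 libraries), followed by Tyrobp with 281 ± 29.7, C1qa with 255 ± 22.2, Ctss with 223 ± 25.0 and C1qc with 194 ± 24.7. Fcer1g stood at 123 ± 14.2 and Laptm5 at 109.8 ± 9.46. Cx3cr1 (62.8 ± 9.56), Csf1r (61.1 ± 3.64) and Trem2 (42.8 ± 6.68) were lowest. C1qb was above 85.3% of all genes of the table on this scale and Trem2 above 25.9%. Only 3 steps in this order had ranges that did not overlap over the 8 libraries: C1qc above Fcer1g, Laptm5 above Cx3cr1 and Csf1r above Trem2. Cx3cr1 and Csf1r could not be ranked, since each was higher in 4 of the 8 libraries.

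For 9 of the 10 genes the length column equals the merged exons of all transcripts in GENCODE M21 (Csf1r has 4885 bases in the table and 5774 there), and the choice of length matters for this order. Trem2 has 4946 bases in the table but 1088 in its longest coding transcript, and its level per kb was 195 ± 30.4 instead of 42.8 on that length, rank 6 instead of rank 10. C1qc was at 311 ± 39.7 instead of 194 per kb. This second length was chosen after the values had been seen.

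**Figure D1:**
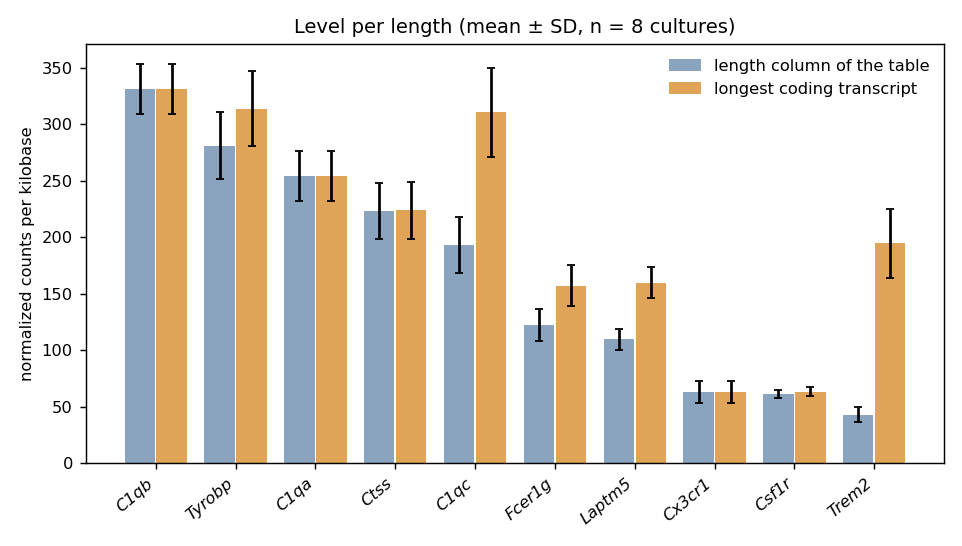
Mean normalized counts per kilobase of the 10 genes over 8 libraries (bars, with SD), computed with the length column of the table (blue) and with the longest coding transcript (orange). Trem2 goes from 42.8 to 195 and C1qc from 194 to 311, while C1qb stays highest at 331 with either length.

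The complement protein C1q, which starts the classical pathway, is built from equal numbers of A, B and C chains. Their genes lie side by side on the minus strand of chromosome 4 (mm10), C1qb at 136880129 to 136886187, C1qc at 136889804 to 136893065 and C1qa at 136895917 to 136898803, each with 3 exons in its longest coding transcript. On that length the A chain made up 28.4% ± 2.13, the B chain 37.0% ± 1.25 and the C chain 34.6% ± 2.13 of the C1q level (SD, n = 8). The share of the B chain ranged from 35.9% to 39.1%, that of the C chain from 30.5% to 37.4% and that of the A chain from 25.6% to 31.3%.

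C1qb was at 356, 356, 338 and 326 normalized counts in WT_CSPG replicates A to D and at 364, 371, 408 and 364 in KO_CSPG replicates A to D. Every KO_CSPG culture was above every WT_CSPG culture, though the gap between 356.3 and 363.6 is narrow. C1qb was the 1 member of 10 with groups that did not overlap in this direction, and 4.05% of all genes had that pattern. The log2 fold change, KO_CSPG over WT_CSPG, was 0.13 ± 0.06 (SE, adjusted p = 0.291, limma with Benjamini-Hochberg adjustment over 12012 genes), so the gene was not called. In bulk cultures, a different number of microglia and a different amount of RNA per microglial cell cannot be told apart.

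C1qc was at 375, 397, 295 and 329 in WT_CSPG A to D and at 379, 398, 454 and 362 in KO_CSPG A to D. The groups overlapped, with KO_CSPG C highest and WT_CSPG C lowest, and the log2 fold change was 0.19 ± 0.09 (adjusted p = 0.299). C1qa was at 272, 235, 256 and 272 in WT_CSPG and at 280.2, 282, 293 and 228 in KO_CSPG. KO_CSPG D was the lowest of the 8 cultures for C1qa and the other 3 KO_CSPG cultures were the highest, giving a log2 fold change of 0.06 ± 0.08 (adjusted p = 0.772).

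Of the receptors for neuronal and growth factor signals, Cx3cr1 (chromosome 9, 119901616 to 120069879, minus strand) was at 286, 265, 267 and 216 in WT_CSPG A to D and at 287, 316, 363 and 263 in KO_CSPG A to D. It had the largest difference of the 10, a log2 fold change of 0.24 ± 0.10 with a 95% interval of 0.04 to 0.45, a fold of 1.185. The groups overlapped through KO_CSPG D, which lay below 3 of the WT_CSPG cultures, and the adjusted p was 0.222. Its exons share bases with the gene model Gm33858.

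Csf1r, the receptor for CSF1 and IL-34 (chromosome 18, 61105572 to 61132149, plus strand), was at 315, 284, 306 and 280.25 in WT_CSPG and at 329.7, 301, 288 and 283 in KO_CSPG. It was the steadiest member, with a coefficient of variation of 5.96% over the 8 cultures and a highest value only 1.176 times the lowest. The log2 fold change was 0.02 ± 0.07, with a 95% interval of -0.12 to 0.16 (adjusted p = 0.928). Csf1r shares exon bases with Hmgxb3 in GENCODE M21, so part of its reads may have been counted for either gene.

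Trem2, the lipid and debris receptor (chromosome 17, 48346401 to 48354147, plus strand), was the most variable member, with a coefficient of variation of 15.6%. It was at 241, 211, 224 and 161 in WT_CSPG A to D and at 218, 193, 264 and 181 in KO_CSPG A to D. The D cultures were the lowest of both genotypes, and the highest value was 1.64 times the lowest. The log2 fold change was 0.03 ± 0.14, with a 95% interval of -0.27 to 0.33 (adjusted p = 0.942), so a change in level of up to about 1.26-fold lies within the interval.

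Tyrobp, the ITAM adaptor of TREM2 (chromosome 7, 30413760 to 30417585, plus strand), was at 178, 174, 181 and 167 in WT_CSPG A to D and at 219, 202, 209 and 169 in KO_CSPG A to D. Replicates A, B and C of KO_CSPG lay above all WT_CSPG cultures and replicate D lay among them. The log2 fold change was 0.18 ± 0.09 (adjusted p = 0.288). Fcer1g, the related ITAM adaptor of Fc receptors (chromosome 1, 171229572 to 171234365, minus strand), had the fewest reads of the 10 and was at 119, 99.6, 109 and 106 in WT_CSPG and 104, 97.0, 131 and 92.9 in KO_CSPG. Here KO_CSPG held both the highest and the lowest values, and the log2 fold change was -0.04 ± 0.11 (adjusted p = 0.911).

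The 2 lysosomal members had close to the same mean in both genotypes. Ctss, cathepsin S (chromosome 3, 95526786 to 95556403, plus strand), was at 330.2, 305, 319 and 251 in WT_CSPG A to D and at 320.0, 302, 345 and 255 in KO_CSPG A to D, a log2 fold change of 0.02 ± 0.10 (adjusted p = 0.952). Laptm5, a lysosomal membrane protein of blood-derived cells (chromosome 4, 130913125 to 130936141, plus strand), was at 433, 419, 436 and 380.1 in WT_CSPG and at 429.55, 454, 430.4 and 344 in KO_CSPG. Both genes were lowest in the D cultures of each genotype, and the log2 fold change of Laptm5 was -0.01 ± 0.07 (adjusted p = 0.952).

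**Figure D2:**
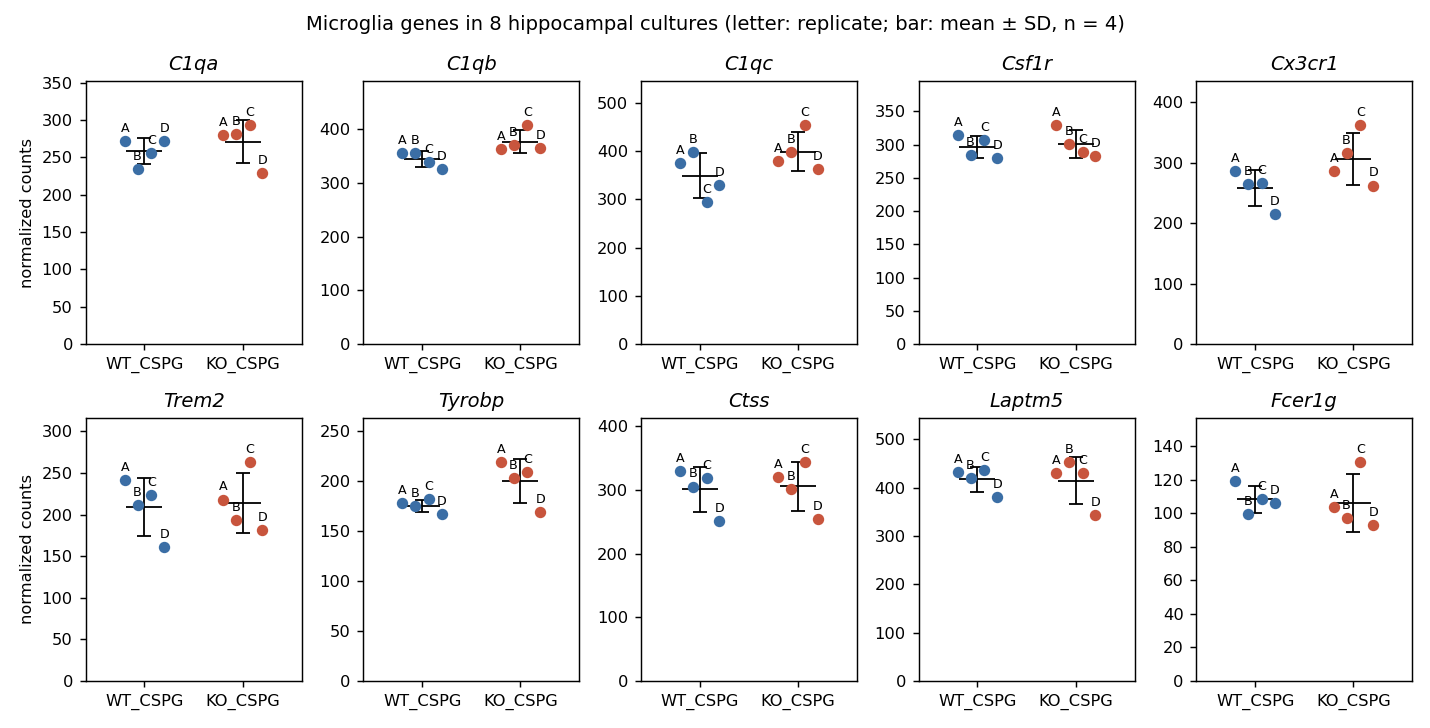
Normalized counts of each gene in the 4 WT_CSPG (blue) and 4 KO_CSPG (red) cultures, lettered by replicate, with the mean and SD of each group; all axes start at 0. C1qb is the gene whose groups do not overlap (326 to 356 and 364 to 408), and the D cultures are low for most genes.

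In all, 0 of the 10 genes were called between KO_CSPG and WT_CSPG at an adjusted p under 0.05, beside 2.88% of all 12012 genes (346 genes, 131 higher and 215 lower in KO_CSPG). At an unadjusted p under 0.05, 4 of the 10 were higher in KO_CSPG (Cx3cr1, Tyrobp, C1qb and C1qc), beside 7.51% of all genes, and 0 were lower. That count was 0 when WT_CSPG D, KO_CSPG B or KO_CSPG C was left out. The median log2 fold change of the 10 was 0.05, beside 0.00016 over all genes, and 8 of the 10 were above 0, as were 50.1% of all genes. The 6 genes without an unadjusted p under 0.05 had log2 fold changes of -0.04 to 0.06.

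**Figure D3:**
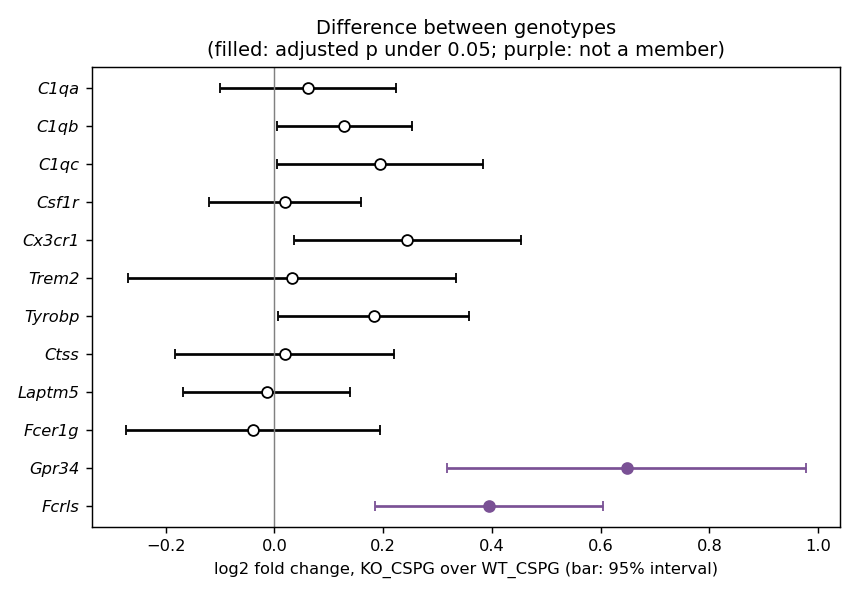
Log2 fold change, KO_CSPG over WT_CSPG, with 95% intervals, for the 10 members (black) and for Gpr34 and Fcrls (purple). Open points have an adjusted p of 0.05 or more; all 10 members are open, between -0.04 (Fcer1g) and 0.24 (Cx3cr1), and Gpr34 (0.65) and Fcrls (0.40) are filled.

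Cultures of the same genotype also differed from each other. The summed level of the 10 genes was 2905, 2747, 2732 and 2489 in WT_CSPG A to D (mean 2718 ± 172) and 2930.2, 2917, 3185 and 2542 in KO_CSPG A to D (mean 2893 ± 265). The groups overlapped, and the log2 difference of the group means was 0.09. WT_CSPG D was among the 2 lowest cultures for 8 of the 10 genes, and so was KO_CSPG D. KO_CSPG C was the highest culture for 7 of the 10, the exceptions being Csf1r, Tyrobp and Laptm5. WT_CSPG D is also the culture with the highest choroid plexus sum, and the part of that in its low microglia values was not tested.

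**Figure D4:**
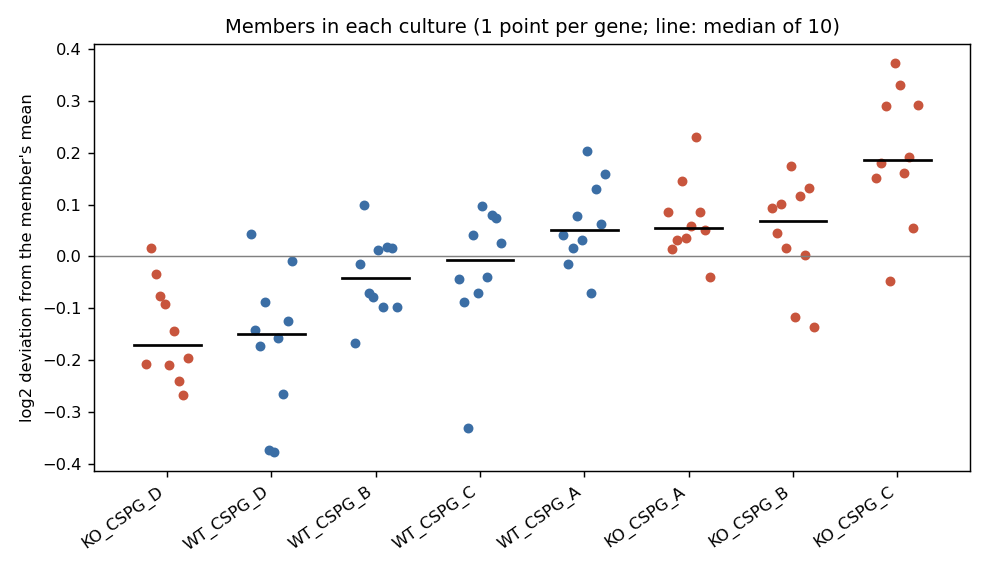
Deviation of each of the 10 genes from its own mean over the 8 cultures on the log2 scale (1 point per gene), with the cultures ordered by their median (black line). KO_CSPG D and WT_CSPG D lie lowest, with medians of -0.17 and -0.15, and KO_CSPG C highest with 0.19; apart from KO_CSPG D, the WT_CSPG cultures lie below the KO_CSPG cultures, with 0.052 in WT_CSPG A and 0.055 in KO_CSPG A next to each other.

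Most pairs of members were positively correlated over the cultures. Over the 8 cultures the median Pearson r of the 45 pairs of members was 0.54, from -0.08 (C1qc with Csf1r) to 0.95, and 44 of the 45 were above 0, whereas the median over all pairs of genes of the table was -0.00037. Of the 45 pairs, 1 passed an exact permutation test of the pairing after Benjamini-Hochberg adjustment over the pairs: Trem2 with Ctss (r = 0.95, unadjusted p = 4.96e-05, adjusted p = 0.00223; Spearman's rho = 0.98, unadjusted p = 0.000397, adjusted p = 0.0179). Without WT_CSPG D and KO_CSPG C, the 2 cultures farthest from the median of Trem2, r of this pair was 0.90 over 6 cultures, and with the group means taken away it was 0.95. Before adjustment, 9 of the 45 pairs had a p under 0.05 with either coefficient. With 4 cultures per genotype, no correlation was computed within a genotype.

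Over the 8 cultures, Cx3cr1 followed the other members most closely, with a median r of 0.74. Without WT_CSPG D and KO_CSPG C, Cx3cr1 had r from -0.003 with Trem2 to 0.84 with C1qa, and its rank rests in part on them. Its r with C1qb was 0.92 (rho = 0.74, exact permutation p = 0.00422 and 0.0458, adjusted p = 0.0949 and 0.223), and r was 0.58 without the same 2 cultures, so it rests in part on them. Among the 3 C1q genes, C1qb and C1qc had r = 0.87 (rho = 0.76, exact permutation p = 0.00942 and 0.0368, adjusted p = 0.141 and 0.223) and 0.85 without the 2 farthest cultures, and C1qa had r = 0.34 with C1qb and 0.32 with C1qc. Without KO_CSPG D and WT_CSPG B, the cultures farthest from the median of C1qa, these were 0.82 and 0.95, so the low values rest on those cultures. Ctss with Laptm5 had r = 0.83 over the 8 cultures but -0.26 without the D cultures, which are the farthest from the median of Ctss, so this relation rests on them. Trem2 with its adaptor Tyrobp had 0.52, and 0.10 without WT_CSPG D and KO_CSPG C.

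**Figure D5:**
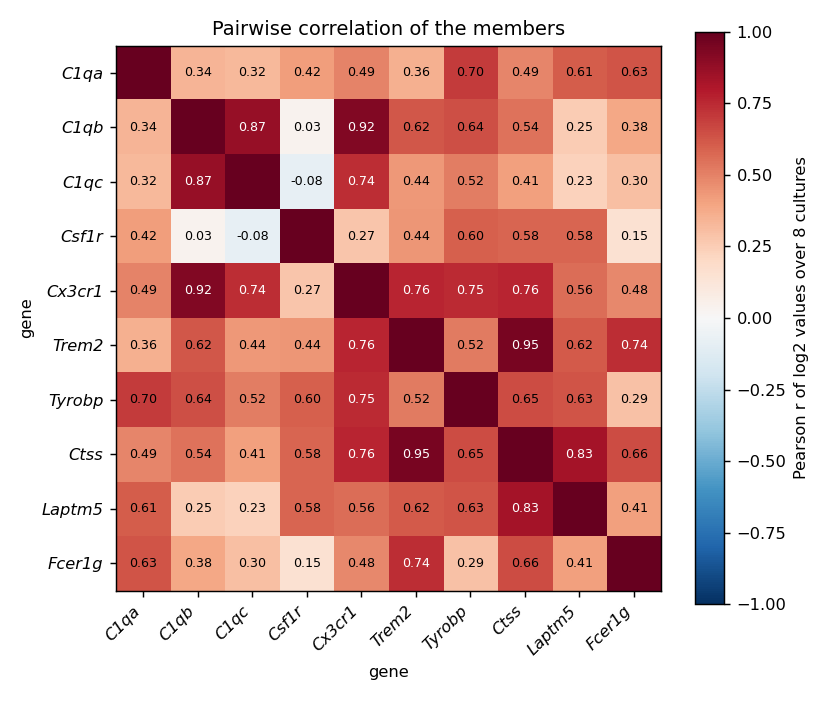
Pearson r of the log2 values of each pair of the 10 genes over the 8 cultures (red above 0, blue below 0). Trem2 with Ctss (0.95), C1qb with Cx3cr1 (0.92) and C1qb with C1qc (0.87) are the highest of the 45 pairs, and Csf1r with C1qc (-0.08) is the lowest.

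Among the other 12002 genes, those whose log2 values were most like the summed level of the members were Pbk, a mitotic kinase, with r = 0.96, then Ing5, Fxyd6, Med30, Adi1, Clec7a, Ndufb5, Gm561, Nceh1 and Suclg1 with r = 0.91. These values describe 8 points that share libraries, and the 10 were the highest of 12002, so they carry no test. Clec7a, the myeloid receptor dectin-1, was at 400.2, 344, 379 and 297 in WT_CSPG A to D and at 412, 372, 445 and 277 in KO_CSPG A to D, lowest in both D cultures (r = 0.94, log2 fold change 0.07 ± 0.16, adjusted p = 0.890). With the group means taken away, 5 of these 10 genes were again among the 10 highest.

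The wider list of microglia identity genes had 17 entries, 7 of which had a row. P2ry12, P2ry13, Tmem119, Siglech, Olfml3, Aif1, Selplg, Slc2a5, Cd33 and Itgam had none, so several genes used to define homeostatic microglia have no value here. Genes with low values had been left out, and a gene without a row may still have had reads. Of the 7, 2 were called higher in KO_CSPG and 0 lower, beside 2.88% of all genes called in either direction. Gpr34, the lysophosphatidylserine receptor, was at 43.9, 31.4, 35.9 and 32.6 in WT_CSPG and at 55.3, 54.1, 67.5 and 50.2 in KO_CSPG (log2 fold change 0.65 ± 0.16, adjusted p = 0.0255). Every KO_CSPG culture was above every WT_CSPG culture, a pattern that 4.05% of all genes had, at levels close to the lowest mean of the table.

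Fcrls, an Fc receptor-like gene used as a microglial marker, was at 138, 109, 133 and 127 in WT_CSPG and at 139, 182, 184 and 166 in KO_CSPG (log2 fold change 0.40 ± 0.10, adjusted p = 0.0310). Here too the groups did not overlap, by the narrow step from 137.9 to 138.7. The call of Gpr34 was lost without WT_CSPG B, WT_CSPG C, KO_CSPG A or KO_CSPG C (adjusted p of 0.0639, 0.0555, 0.0687 and 0.118). The call of Fcrls was lost without WT_CSPG B, WT_CSPG C, KO_CSPG B, KO_CSPG C or KO_CSPG D (0.104, 0.0528, 0.0957, 0.124 and 0.0662). Both calls were also lost without a trend of the variances (0.0633 and 0.149) and with the Y-linked covariate (0.704 and 0.856).

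Other genes of the wider list were not called. Sall1, a transcription factor of microglia, was at 283 ± 16.8 in WT_CSPG and 301 ± 21.1 in KO_CSPG (adjusted p = 0.579), and Cd53 at 189.6 ± 17.9 and 199 ± 14.3 (adjusted p = 0.760). Ptprc, the leukocyte antigen CD45, chosen after its values had been seen, was at 93.3 ± 9.48 and 93.6 ± 11.3 (adjusted p = 0.997). Ly86, chosen in the same way, was at 35.3 ± 5.39 and 47.7 ± 9.55 (adjusted p = 0.228), close to the lowest mean of the table. At an unadjusted p under 0.05, 3 of the 7 genes were higher in KO_CSPG and 0 lower, beside 7.51% of all genes higher. Over the cultures, Sall1 had r = -0.40 with the summed level of the members, beside 0.81 for Cd53 and 0.80 for Ptprc. The myeloid factor Spi1 also had a negative r (-0.46). The share of the Sall1 reads that came from microglia was not tested.

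Of 31 listed genes of the classical complement pathway and its regulators, 20 had a row and 0 were called; C1ra, C1rb, C1s1, C1s2, C2 and C3, which act next to C1q, had none. The highest normalized counts were those of Clu, the fluid-phase regulator clusterin, at 2761 ± 269 in WT_CSPG and 2837 ± 145 in KO_CSPG, and the neuronal complement regulators Sez6l2 (2003 ± 81.3 and 1954 ± 71.4) and Sez6 (1815 ± 98.6 and 1699 ± 62.3). C4b, which C1 cleaves, was at 135 ± 19.4 and 151 ± 22.002 (adjusted p = 0.523), and C3ar1, the C3a receptor, at 494 ± 61.0 and 499.7 ± 26.7 (adjusted p = 0.916). Itgb2, the beta chain of complement receptor 3, was at 124, 126, 155 and 146 in WT_CSPG and at 120.2, 117, 112 and 101.4 in KO_CSPG. Its log2 fold change was -0.28 ± 0.10 (adjusted p = 0.137), so the gene was not called. C4b, C3ar1 and Itgb2 were picked out after their values had been seen.

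On the CSF1 receptor axis with its myeloid transcription factors, 14 of 20 genes had a row, 1 was called higher and 0 lower. Csf1, the ligand, was at 465 ± 22.1 in WT_CSPG and 431 ± 29.6 in KO_CSPG (adjusted p = 0.359), and Il34, the other ligand, had no row. Spi1 was at 53.1 ± 6.50 and 58.5 ± 8.02 (adjusted p = 0.726) and Irf8 at 80.3 ± 4.91 and 87.0 ± 12.01 (adjusted p = 0.741). The called gene was Mef2c, a transcription factor of neurons as well as microglia, at 1821 ± 132 and 2208 ± 152 (log2 fold change 0.28 ± 0.06, adjusted p = 0.0187). Its call was lost without KO_CSPG A or KO_CSPG C (adjusted p of 0.0530 and 0.0807) and without a trend of the variances (0.132). It was also lost with the replicate letter as a block (0.135) and with the Y-linked level as covariate (0.876). Mef2a was at 1535 ± 65.4 and 1482 ± 71.2 and Maf at 1015 ± 90.6 and 1036 ± 73.0, neither called. Csf1, Spi1 and Irf8 were picked out after their values had been seen.

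Of 13 genes of fractalkine and purine sensing and the related brakes on microglia, 8 had a row and 0 were called. Cx3cl1, the neuronal ligand of CX3CR1, was at 439.9, 383, 397 and 440.2 in WT_CSPG and at 435, 487, 466 and 444 in KO_CSPG (log2 fold change 0.14 ± 0.06, adjusted p = 0.220). It was picked out after its values had been seen, as the partner of Cx3cr1, and its groups overlapped. Cd200, a neuronal ligand that restrains microglia, was at 2839 ± 136 and 2996 ± 115 (adjusted p = 0.273), Cd47, the signal against engulfment, at 1570.0 ± 58.9 and 1676 ± 42.6 (adjusted p = 0.176), and its receptor Sirpa at 1544 ± 43.3 and 1595 ± 74.5 (adjusted p = 0.620).

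Of 27 genes around TREM2, TYROBP and FCER1G signalling, 18 had a row, 0 were called higher and 1 lower. The lower one was Sh3kbp1, an endocytic adaptor, at 1845 ± 34.2 in WT_CSPG and 1672 ± 36.1 in KO_CSPG (log2 fold change -0.14 ± 0.03, adjusted p = 0.0187), a call lost without WT_CSPG A or KO_CSPG C (adjusted p of 0.0710 and 0.0780), without a trend of the variances (0.133) and with the Y-linked covariate (0.937). Syk, the kinase recruited by both adaptors, was at 79.4 ± 8.60 and 72.8 ± 3.99 (adjusted p = 0.702), and Fcgr3, which pairs with FCER1G, at 184 ± 16.2 and 186 ± 21.997 (adjusted p = 0.951), both picked out after their values had been seen. Apoe, a TREM2 ligand made largely by astrocytes, was at 7254 ± 809 and 8083 ± 444 (adjusted p = 0.452). Adam10, which sheds TREM2, was at 2258 ± 52.7 and 2282 ± 53.1, and Plcg1 at 2197 ± 94.1 and 2137 ± 43.0.

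Among lysosomal proteases and membrane proteins 25 of 29 genes had a row and 0 were called, with a median log2 fold change of -0.01. Psap was at 12016 ± 30.0 in WT_CSPG and 12019 ± 328 in KO_CSPG, Ctsb at 8439 ± 325 and 8568 ± 636, and Lamp1 at 3986 ± 89.0 and 4134 ± 136. Cd68, the lysosomal protein of macrophages, picked out after its values had been seen, was at 481 ± 39.6 and 442 ± 24.9 (adjusted p = 0.346). For the phagocytosis of apoptotic cells 19 of 23 genes had a row and 0 were called. Calr was at 6383 ± 144 and 6581 ± 129, Lrp1 at 2944 ± 222 and 2798 ± 130.2, and Mfge8 at 2288 ± 201 and 2407 ± 132.

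The 10 members can also be transcribed by other macrophages. Of 19 border macrophage and blood myeloid genes, 7 had a row (Spp1, Lyz2, Cd44, Stab1, Dab2, Mrc1 and Ms4a7), 0 were called, and Cd163, Lyve1, Pf4, F13a1 and Ccr2 had none. Their sum was 3873 to 4417 in WT_CSPG and 3612 to 4422 in KO_CSPG. Spp1 was at 1423 ± 188 and 1448 ± 151, Lyz2 at 1123 ± 40.8 and 1084 ± 129, and Cd44 at 656 ± 29.9 and 587 ± 44.1. Mrc1, picked out after its values had been seen, was at 98.2 to 171 in WT_CSPG and 101.4 to 124 in KO_CSPG (adjusted p = 0.308). The share of the 10 members' reads that came from such cells was not tested.

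Other cell types were checked by fixed marker lists. Neuronal genes (9 of 9 with a row, 0 called) summed to 43737 to 45975 in WT_CSPG and 44781 to 46008 in KO_CSPG, and astrocyte genes (9 of 10, 0 called) to 39691 to 48540 and 46171 to 51189. In the oligodendrocyte lineage all 7 genes had a row and 2 were called higher, Olig1 (log2 fold change 0.59 ± 0.06, adjusted p = 2.33e-07) and Olig2 (0.79 ± 0.08, adjusted p = 1.2e-06), and the 7 summed to 1038 to 1346 in WT_CSPG and 1652 to 1818 in KO_CSPG. The groups did not overlap in this sum, and they did in the sum of the microglia genes; the difference between both lists was not tested. Endothelial (1 of 7 with a row), mural (3 of 6), fibroblast (3 of 5) and choroid plexus genes (3 of 8) had 0 called, and the part of these cell types in the microglia values was not tested.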

How the data were processed

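Poly-A RNA of the cultures was sequenced by the authors as single reads of 50 bases, aligned at a sequencing facility to mm10 (per the labels) and analysed with DESeq2 on the Galaxy platform; the aligner and the counting program are not given in the sources used here. The authors deposited a normalized signal for each gene and library, the reads divided by a size factor, and genes with low values had been left out. The deposited table also holds the authors' own fold changes and p-values for KO_CSPG against WT_CSPG, which were not used. Each library's values were whole multiples of 1 step to within 5.8e-11 of a read, which gave its reads. No count model was fitted, since the table is not a deposited count table and lacks the genes under its floor. Values were transformed to log2(value + 1), so fold changes are on that scale, then tested in R 4.3.3 by limma 3.58.1 (trend and robust variances, no covariate), with Benjamini-Hochberg adjustment over 12012 genes and a threshold of 0.05. On simulated data the fit recovered 88 of 100 genes with a log2 fold change of 0.5 and 100 of 100 with a log2 fold change of 1, and called 15 of 11812 unchanged genes. The simulation gave all genes the same dispersion and held no effect as small as those of the members. It therefore gives no recovery rate for them. Correlations were tested over all 40320 pairings with numpy 2.4.6 in Python 3.11.15, with ranks from scipy 1.17.1. Columns were mapped to libraries by name.

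The 10 genes and all gene lists were chosen with earlier results of these data known. Named genes are the 10 members, Fibcd1, called genes of the lists, the 3 genes with the highest normalized counts of the main lists, the 10 genes most like the summed members, and the sex-linked genes; 1 gene that this rule names is not reported here. By the paper each replicate is a separate preparation of cells; which animals or litters went into each is not given in the sources used here, and p-values measure the spread between these libraries. Pseudocount, filter, scaling, variance model, replicate letter, Y-linked level and single libraries were varied.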

Additional observations from a re-analysis of the deposited data

Results flagged for a closer look

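In 34 groups of 4 cultures examined for a culture far from the other 3 (Dixon's test), 3 groups held one, and chance alone flags about 1 in 20, here 1.7. C1qb in KO_CSPG C stood at 407.9, with the other 3 KO_CSPG cultures at 363.6 to 371.1. Mef2c in WT_CSPG B stood at 1623 (others 1875 to 1906), and Olig1 in WT_CSPG A at 368.8 (others 423.9 to 427.8).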

How the results depend on the processing

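None of the 10 members was called under any of 17 alternatives (pseudocounts of 0.1 and 10, a mean of at least 100, upper-quartile and TMM scaling, no trend, no robust variances, replicate letter, Y-linked level, and each library left out), with a smallest adjusted p of 0.0702 for Cx3cr1. That value came with the replicate letter as a block, where 0 members were called. The labels do not say whether the letters pair the cultures. The deviations of same-lettered cultures correlated at -0.07, 0.10, 0.28 and -0.01 (A to D), and those of differently lettered cultures at -0.20 to 0.11. These values cannot decide the question, since no cultures known to share a preparation were there to compare with. The block moved the calls over all genes from 346 to 429. Over all genes, 80 were called with no trend, 2 with the Y-linked level as covariate, 576 without WT_CSPG D, 186 without KO_CSPG A, 202 without WT_CSPG C, 204 without KO_CSPG C and 226 without WT_CSPG A; the cause was not tested. C1qc reversed to -0.0732 and Fcer1g to 0.338 (log2 fold changes, neither called) once the Y-linked level was a covariate. Leaving out single libraries reversed 5 members whose values lie near 0: Csf1r ranged from -0.0261 to 0.0486, Trem2 from -0.0882 to 0.107, Ctss from -0.067 to 0.102, Laptm5 from -0.0608 to 0.0722 and Fcer1g from -0.144 to 0.0196. Cx3cr1, C1qa, C1qb and Tyrobp stayed above 0 under all 17. Gpr34, Fcrls, Mef2c and Sh3kbp1 lost their calls with no trend (adjusted p = 0.0633, 0.149, 0.132 and 0.133) and with the Y-linked covariate (0.704, 0.856, 0.876 and 0.937), Mef2c also with the block (0.135), and Gpr34 was not tested at a mean of at least 100. Olig1 and Olig2 lost theirs with the Y-linked covariate (0.705 and 0.632). Genotype accounts for 91.2% of the variance of that covariate, and with it the log2 fold changes were 0.414 for Olig1, 0.70 for Olig2, 1.16 for Gpr34, 0.44 for Fcrls, 0.253 for Mef2c and -0.0761 for Sh3kbp1. The median r of the members was 0.455 without WT_CSPG D and KO_CSPG C, 0.596 with the group means taken away, and 0.509 to 0.614 without each single library. The planned edgeR and DESeq2 fits were not run: reads could be had from the steps of each library, but they were not taken as a count table, since the genes with the lowest values are missing. At 92 to 487 reads per gene and library, the 95% interval of Trem2 still reached from -0.27 to 0.33 on the log2 scale.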
